A study of Mus musculus with 8 samples.

Results

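The transcripts described here are those of the immunoglobulin constant region genes of mouse B cells: Ighm (mu), Ighd (delta), Ighg3, Ighg1, Ighg2b and Ighg2c (gamma), Ighe (epsilon) and Igha (alpha) of the heavy chain locus on chromosome 12, and Igkc of the kappa light chain locus on chromosome 6. The 9 genes were taken by name from a list of constant genes. All 9 were in the table of 15681 genes and all 9 were among the 12441 genes tested. Mature B cells were sorted from spleens of mice aged 8 to 10 weeks and cultured for 72 h with the Toll-like receptor ligand LPS at 20 µg/ml and the cytokine IL-4 at 20 ng/ml, so every group carried this treatment. Gene expression was measured by RNA-seq in 8 libraries, 2 for each of 4 genotypes: B cells deficient in Myc (Myc_KO), in its partner Max (Max_KO) or in both (double_KO), and heterozygous cells as the control. The controls are heterozygous and not wild type. The labels used here name neither the heterozygous alleles nor the Cre that deleted them, and do not tie libraries to mice, so p-values measure the spread between these libraries only.

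For 2 libraries the labels disagree. The title, which is also the column name in the table, gives Myc_KO for one library and double_KO for the other, and the description and genotype fields give the reverse. Groups follow the titles here, in which these 2 are Myc_KO replicate 2 and double_KO replicate 1. Myc transcripts were 48.3 and 55.8 RPM in Myc_KO, 192 and 176 RPM in Max_KO, 38.7 and 55.3 RPM in double_KO, and 111 and 116 RPM in the control, where RPM is reads per M of effective library size. Max transcripts were 70.5 and 59.8 RPM in Myc_KO, 16.4 and 15.5 RPM in Max_KO, 28.6 and 31.2 RPM in double_KO, and 54.96 and 54.5 RPM in the control. By title the 2 libraries of each group lay close in both genes; by description the Myc_KO group would join Max levels of 70.5 and 28.6 RPM. For the constant genes, values with the other grouping or without the disputed libraries are given where they end a call or turn an order. For most other genes only the grouping by title is given. Libraries held 14.9 to 17.9 M estimated reads. Total reads over effective size were 0.956 to 0.995 in the 6 knock-out libraries and 1.04 and 1.09 in the controls, and mitochondrial transcripts took 2.21 to 2.96% of reads in the knock-outs, against 4.93 and 5.69% in the controls.

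Every antibody chain joins a variable region to a constant region, and the heavy chain constant gene sets the isotype. Mature B cells make IgM and IgD from a single long primary transcript that is cut and spliced in alternative ways. On activation, class switch recombination can replace mu with a downstream constant gene. Each downstream gene first gives a sterile germline transcript from its own promoter. LPS with IL-4 is the classical stimulus for switching to IgG1 and IgE, and LPS alone favours IgG3 and IgG2b. A read in a constant exon comes alike from a sterile, a membrane, a secreted or a switched transcript, and the gene totals used here do not part them. In GENCODE vM21 all annotated transcripts of each of the 9 genes begin at the same constant exon, with no variable or germline exon before it.

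The constant genes differ in sequence, and reads are placed by such differences. The first 96 bases of the first constant exon of the main isotypes are shown for this reason, written 5′ to 3′ on the coding strand, from GENCODE vM21 on GRCm38, with in-frame cysteine codons, the residues of the disulfide bonds, in capitals. They lie at chr12:113422635-113422730 (Ighm), chr12:113416229-113416324 (Ighd), chr12:113330428-113330523 (Ighg1) and chr12:113273153-113273248 (Ighe) on the minus strand, and at chr6:70726435-70726530 (Igkc) on the plus strand.
Ighm: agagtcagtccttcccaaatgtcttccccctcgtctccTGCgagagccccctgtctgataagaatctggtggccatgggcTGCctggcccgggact
Ighd: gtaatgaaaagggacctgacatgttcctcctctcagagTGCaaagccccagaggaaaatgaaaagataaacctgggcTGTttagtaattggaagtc
Ighg1: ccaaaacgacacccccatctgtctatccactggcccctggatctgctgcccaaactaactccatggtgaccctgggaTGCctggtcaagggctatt
Ighe: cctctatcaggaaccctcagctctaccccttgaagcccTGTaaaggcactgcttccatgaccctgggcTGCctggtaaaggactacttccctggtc
Igkc: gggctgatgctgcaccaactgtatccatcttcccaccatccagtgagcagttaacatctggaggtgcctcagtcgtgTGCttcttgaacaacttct

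The 4 gamma genes are the close relatives in the family. Between pairs of them, identity was 78.4 to 88.3% in the first constant exon (CH1), 73.9 to 94.2% in CH2, 64.1 to 76.2% in CH3 and 38.8 to 77.3% in the hinge exon. The hinge exons, which encode the flexible stretch between the antigen-binding arms and the stem and differ most, are shown in the same way. They lie on the minus strand of chromosome 12 at 113360529 to 113360576 (Ighg3), 113329844 to 113329882 (Ighg1), 113307261 to 113307326 (Ighg2b) and 113288263 to 113288325 (Ighg2c), and hold 1, 4, 4 and 3 cysteine codons in that order.
Ighg3: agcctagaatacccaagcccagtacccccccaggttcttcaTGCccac
Ighg1: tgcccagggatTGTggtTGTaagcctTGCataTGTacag
Ighg2b: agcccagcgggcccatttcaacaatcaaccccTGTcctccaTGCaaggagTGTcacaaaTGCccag
Ighg2c: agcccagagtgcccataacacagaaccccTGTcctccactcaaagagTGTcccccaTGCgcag
Of all windows of 50 bases in the annotated transcripts, 5.49% in Ighg2c, 4.15% in Ighg2b, 1.58% in Ighg3 and 0.393% in Ighg1 occurred in another of the 9 genes, and 0% in Ighm, Ighd, Ighe, Igha and Igkc. No window occurred in any other annotated gene. Reads of a shared stretch are divided between genes by an estimate, and this touches Ighg2c and Ighg2b most.

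Ighm, the heavy chain of IgM, was the most abundant heavy chain transcript in every library, and ranked between 1 and 4 among all genes. It measured 10569 and 9788 RPM in Myc_KO, 7126 and 6889 RPM in Max_KO, 8336 and 10208 RPM in double_KO, and 10500 and 10330 RPM in the control. Both Max_KO libraries were below all others, and the Myc_KO libraries overlapped the controls. Ighm fell in Max_KO, by 0.57 ± 0.13 (SE) on the log2 scale (limma adjusted p = 0.00845). The fitted log2 difference was -0.03 in Myc_KO, with a 95% interval of -0.32 to 0.26 (limma adjusted p = 0.848), and -0.18 in double_KO, with an interval of -0.46 to 0.11 (limma adjusted p = 0.303). Quantile normalization ended the Max_KO call (-0.25, limma adjusted p = 0.179) and turned the Myc_KO and double_KO differences to 0.42 and 0.21, the first of these called (limma adjusted p = 0.0355).

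Ighd, the heavy chain of IgD, was the only one of the 9 that rose, and it rose in all 3 knock-outs. Ighd measured 699 and 753 RPM in Myc_KO, 613 and 555 RPM in Max_KO, 637 and 490 RPM in double_KO, and 186 and 148 RPM in the control. Every knock-out library was above both controls. The log2 changes were 2.13 ± 0.15 in Myc_KO, 1.82 ± 0.15 in Max_KO and 1.75 ± 0.15 in double_KO (SE, limma adjusted p = 5.64e-05, 0.000238 and 0.000206). Of all genes tested, 17.3% were called higher in each of the 3 knock-outs. Ighd and Ighm share their primary transcript, and the ratio of Ighd to Ighm reads within a library was 0.0661 and 0.0769 in Myc_KO, 0.0860 and 0.0806 in Max_KO, 0.0764 and 0.0480 in double_KO, and 0.0177 and 0.0143 in the control. That is 4.48-fold higher in Myc_KO, 5.23-fold in Max_KO and 3.81-fold in double_KO than in the control, and none of the 6 knock-out libraries reached the control range. The 6 against 2 libraries gave a two-sided exact permutation p of 0.07143, the smallest that this number of libraries allows.

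Ighg1, the isotype that IL-4 favours, was the most abundant downstream heavy chain transcript and fell in all 3 knock-outs, by different amounts. Ighg1 measured 881 and 762 RPM in Myc_KO, 1572 and 1363 RPM in Max_KO, 1484 and 1504 RPM in double_KO, and 2673 and 2333 RPM in the control. The groups did not overlap, except that double_KO lay within the range of Max_KO. The log2 changes against the control were -1.61 ± 0.11 in Myc_KO, -0.77 ± 0.11 in Max_KO and -0.74 ± 0.11 in double_KO (SE, limma adjusted p = 5.64e-05, 0.00149 and 0.00176). Ighg1 was higher in Max_KO than in Myc_KO by 0.84 ± 0.11 and in double_KO than in Myc_KO by 0.87 ± 0.11 (limma adjusted p = 0.0112 and 0.0232). With groups from the description the double_KO and Myc_KO difference became -0.095 and the Max_KO and Myc_KO difference 0.36, neither past the threshold, and with the 6 undisputed libraries they were 0.77 and 0.73 (limma adjusted p = 0.146 and 0.0540). Against the control, quantile normalization ended the calls in Max_KO (-0.21, limma adjusted p = 0.189) and double_KO (-0.16, limma adjusted p = 0.319), and the description groups that in Max_KO (limma adjusted p = 0.0960).

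Ighe, the heavy chain of IgE, the other isotype of this stimulus, fell in all 3 knock-outs as well. Ighe measured 181 and 79.9 RPM in Myc_KO, 80.1 and 62.7 RPM in Max_KO, 94.0 and 168 RPM in double_KO, and 371 and 436 RPM in the control. All knock-out libraries were below both controls, and the 2 Myc_KO libraries differed from each other by more than the means of the 3 knock-outs did. The log2 changes were -1.74 ± 0.38 in Myc_KO, -2.50 ± 0.38 in Max_KO and -1.67 ± 0.38 in double_KO (SE, limma adjusted p = 0.00668, 0.00165 and 0.00961). The double_KO call was lost without double_KO replicate 1 (log2 change -1.25, limma adjusted p = 0.0589) and without control replicate 2 (-1.56, limma adjusted p = 0.0662). In Myc_KO the change of Ighe was -1.15 without Myc_KO replicate 2 and -2.33 without Myc_KO replicate 1.

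Ighg3, an isotype of the LPS response, fell in Max_KO and was not called in Myc_KO or double_KO. It measured 109 and 95.4 RPM in Myc_KO, 23.6 and 27.3 RPM in Max_KO, 51.5 and 94.99 RPM in double_KO, and 90.1 and 98.8 RPM in the control. Only Max_KO lay apart from the control in both libraries. Ighg3 fell in Max_KO by 1.89 ± 0.24 on the log2 scale (SE, limma adjusted p = 0.00082) and was 2.01 ± 0.24 lower in Max_KO than in Myc_KO (log2, limma adjusted p = 0.00689). The log2 difference from the control was 0.11 in Myc_KO, with an interval of -0.45 to 0.67, and -0.43 in double_KO, with an interval of -0.99 to 0.13. The double_KO level moved with each of its 2 libraries, of which replicate 1 is disputed. Without double_KO replicate 2, the difference of double_KO from the control was -0.87. With the 6 undisputed libraries its difference from the control was 0.0096, and from Max_KO it was 1.90 (limma adjusted p = 0.00905), against 1.46 with all libraries (limma adjusted p = 0.145). With groups from the description the Max_KO and Myc_KO difference was -1.56 (limma adjusted p = 0.143).

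Ighg2b, Ighg2c and Igha were low in every library and lower in the knock-outs. Ighg2b measured 30.2 and 41.6 RPM in Myc_KO, 20.9 and 20.2 RPM in Max_KO, 19.8 and 44.3 RPM in double_KO, and 107 and 109 RPM in the control. Ighg2b fell in each knock-out, with log2 changes of -1.61 ± 0.32, -2.40 ± 0.32 and -1.87 ± 0.32 in Myc_KO, Max_KO and double_KO (SE, limma adjusted p = 0.00451, 0.000978 and 0.00294).
Ighg2c measured 13.8 and 4.12 RPM in Myc_KO, 2.00 and 1.68 RPM in Max_KO, 8.63 and 8.12 RPM in double_KO, and 29.6 and 30.9 RPM in the control. Its fall in Max_KO, with a log2 change of -4.03 ± 0.47 (SE, limma adjusted p = 0.000517), was the largest among the 9 genes and rests on 36 and 30 estimated reads in the Max_KO libraries. Ighg2c was called lower also in Myc_KO (-1.998 ± 0.47) and double_KO (-1.85 ± 0.47, limma adjusted p = 0.00929 and 0.0153).
Igha, the heavy chain of the mucosal isotype IgA, measured 5.62 and 9.57 RPM in Myc_KO, 2.94 and 3.30 RPM in Max_KO, 17.3 and 4.83 RPM in double_KO, and 40.5 and 35.1 RPM in the control. The log2 changes of Igha were -2.36 ± 0.52 in Myc_KO, -3.59 ± 0.52 in Max_KO and -2.04 ± 0.52 in double_KO (SE, limma adjusted p = 0.00704, 0.00139 and 0.0158). For Ighg2c and Igha the calls in Myc_KO and double_KO did not all survive leaving out 1 library: Ighg2c in Myc_KO reached an adjusted limma p of 0.0553 without control replicate 1 and in double_KO 0.0809 without control replicate 2, and Igha reached 0.0544 in Myc_KO and 0.0962 in double_KO without control replicate 1. The sizes depended on single knock-out libraries too: Ighg2c in Myc_KO was -1.13 without replicate 2 and -2.87 without replicate 1 of Myc_KO. Without replicate 1 or replicate 2 of double_KO, the log2 change there was -2.96 or -1.12 for Igha and -1.29 or -2.45 for Ighg2b.

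Igkc, the constant region of the kappa light chain that most mouse antibodies carry, fell in each knock-out. Igkc measured 3756 and 3337 RPM in Myc_KO, 2478 and 2240 RPM in Max_KO, 2870 and 3544 RPM in double_KO, and 6160 and 6026 RPM in the control. No knock-out library reached the controls, and Max_KO was lowest. The log2 changes were -0.78 ± 0.13 in Myc_KO, -1.37 ± 0.13 in Max_KO and -0.93 ± 0.13 in double_KO (SE, limma adjusted p = 0.00153, 0.000251 and 0.000968). Igkc was lower in Max_KO than in Myc_KO by 0.59 ± 0.13 on the log2 scale (limma adjusted p = 0.0420). This call held in only 11 of 24 alternative ways of processing. It was lost with groups from the description (-0.48, limma adjusted p = 0.331) and with the 6 undisputed libraries (-0.67). Heavy chain reads summed over the 8 genes were 3.33 and 3.46 times the Igkc reads in Myc_KO, 3.81 and 3.98 times in Max_KO, 3.71 and 3.53 times in double_KO, and 2.27 and 2.24 times in the control. Every knock-out library was above both controls in this ratio. Quantile normalization ended the Igkc calls in Myc_KO (-0.26, limma adjusted p = 0.116) and double_KO (-0.24, limma adjusted p = 0.147).

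**Figure D1:**
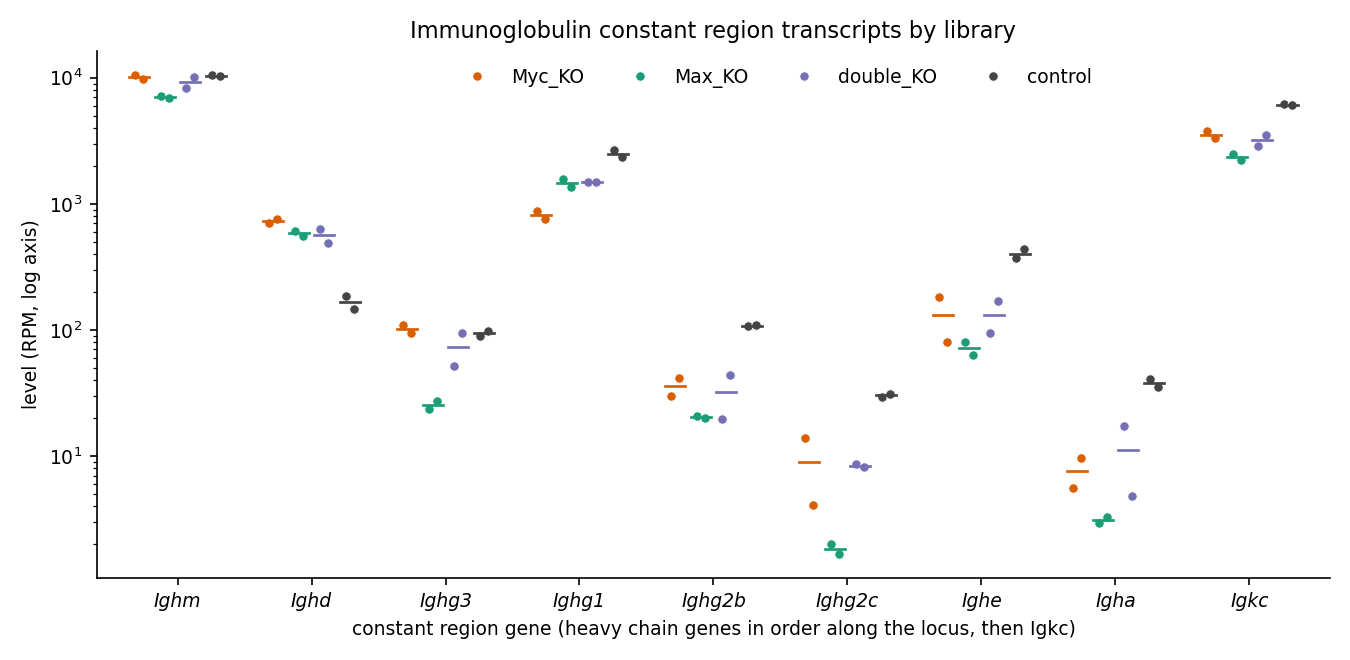
Level of the 9 constant region transcripts in each library, in RPM on a log axis; points are libraries, lines are means of 2, and groups stand in the order Myc_KO, Max_KO, double_KO and control for each gene. Ighd stands above the control in all knock-out libraries, at 490 RPM or more against at most 186 RPM, while Ighg1, Ighg2b, Ighg2c, Ighe, Igha and Igkc stand below it.

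Per kilobase of annotated exon, which allows levels of different genes to be set side by side, the order in the control was Igkc (11453 ± 179 RPM per kb), Ighm (5522 ± 63.6), Ighg1 (966 ± 92.7), Ighe (254 ± 29.1), Ighd (87.8 ± 14.3), Ighg2b (40.4 ± 0.454), Ighg3 (37.6 ± 2.44), Ighg2c (22.8 ± 0.659) and Igha (14.2 ± 1.45, SD, n = 2 throughout). The means of the neighbours Ighg2b and Ighg3 differed by little more than the SD of Ighg3. In Myc_KO, Ighd stood above Ighg1, at 382 ± 20.1 RPM per kb for Ighd and 317 ± 32.5 RPM per kb for Ighg1 (SD, n = 2). Without division by exon length, the Myc_KO means were 726 RPM for Ighd and 821 RPM for Ighg1. The order per kilobase thus rests on the annotated exon lengths of 1900 and 2592 bases. With groups from the description the order per kilobase turned, at 351 ± 23.1 RPM per kb for Ighd and 456 ± 165 RPM per kb for Ighg1 in Myc_KO. In Max_KO and double_KO, Ighg1 stayed above Ighd, at 566 ± 57.2 and 576 ± 5.31 RPM per kb for Ighg1 and 307 ± 21.4 and 296 ± 54.7 RPM per kb for Ighd. The annotated exons of Ighg2c are shorter than those of the other gamma genes, 1326 bases against 2512 to 2678, which raises its value per kilobase.

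Most of the constant genes were lower in the knock-outs, and Ighd was higher. In Myc_KO, 1 was higher, 6 were lower and 2 were not called, with a median log2 change of -1.61, where 45.5% of all genes tested were called (24.0% higher and 21.4% lower) and their median was 0.00. In Max_KO, 1 was higher and 8 were lower, with a median of -1.89, where 39.8% of all genes were called (22.4% higher and 17.4% lower) and their median was 0.02. In double_KO, 1 was higher, 6 were lower and 2 were not called, with a median of -0.93, where 38.7% of all genes were called (21.9% higher and 16.8% lower) and their median was 0.02. Of the 9, 6 were lower in each knock-out, against 12.1% of all genes. The libraries of a knock-out did not overlap the controls for 7 of 9 members in Myc_KO, 9 in Max_KO and 8 in double_KO, against 75.1%, 73.7% and 73.6% of all genes. With each library scaled to the same total of reads, the medians of all genes became 0.15, 0.13 and 0.15, and the split of all calls was 3842 higher and 1938 lower in Myc_KO (2992 and 2667 as deposited), 3450 and 1721 in Max_KO (2781 and 2168), and 3543 and 1596 in double_KO (2725 and 2092). The 3 comparisons share the same 2 control libraries. The scale is relative to the bulk of genes in a library, and in such bulk samples fewer cells of a kind and less RNA per cell cannot be told apart.

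The changes of the heavy chain genes were set beside their place along the locus. The genes lie in the order Ighm (chr12:113418558-113422730), Ighd (chr12:113406604-113416324), Ighg3 (chr12:113356224-113361232), Ighg1 (chr12:113325240-113330523), Ighg2b (chr12:113302965-113307933), Ighg2c (chr12:113285325-113288932), Ighe (chr12:113269260-113273248) and Igha (chr12:113254830-113260236) on the minus strand of GRCm38. Ighd starts 6.41 kb and Igha 162.5 kb downstream of Ighm. The unswitched pair at the 5′ end held the smallest change (Ighm) and the only called rise (Ighd). Between this pair and the later genes, Ighg3 at 61.5 kb changed by 0.11 in Myc_KO, -1.89 in Max_KO and -0.43 in double_KO. Ighg1 at 92.2 kb changed by -1.61, -0.77 and -0.74 in the same order. The 4 genes from 115 kb onward were lower in every knock-out by at least 1.61 on the log2 scale, as was Ighg1 in Myc_KO. An effect of place was not tested.

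**Figure D2:**
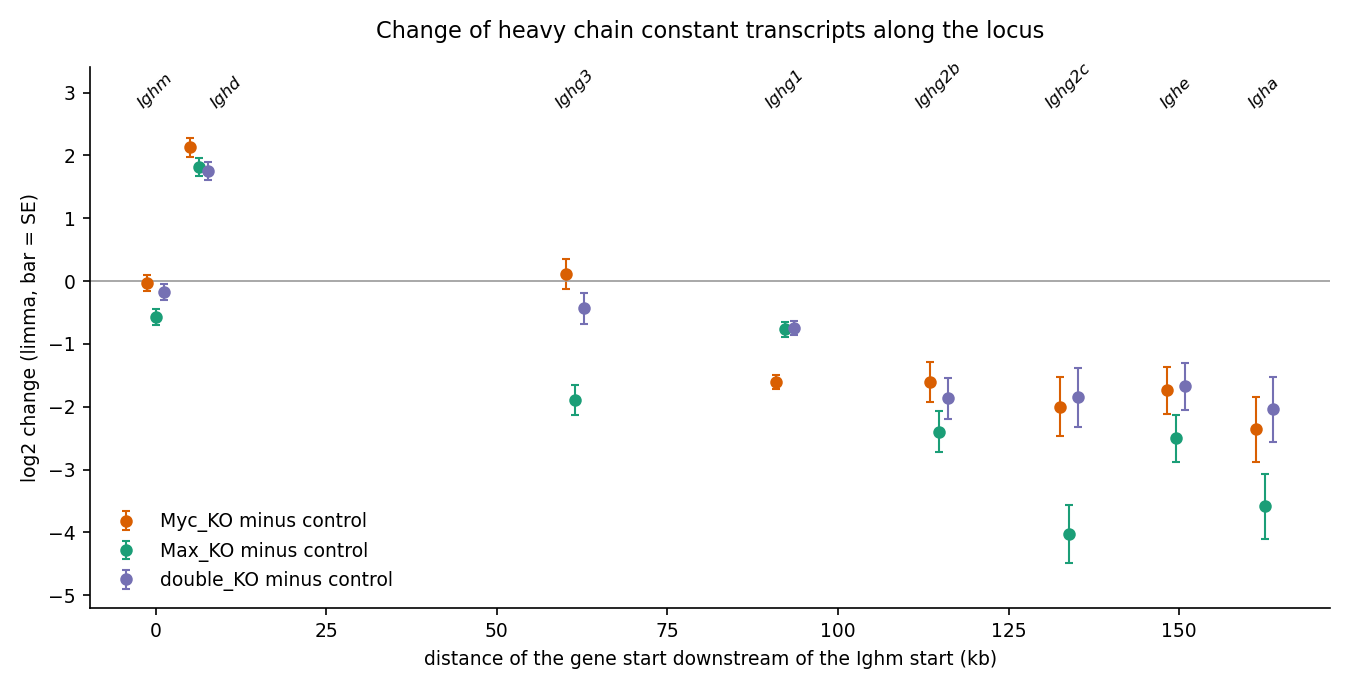
Log2 change against the control (y axis, bars are SE from limma) of the 8 heavy chain constant genes by their distance downstream of Ighm in kb (x axis), for Myc_KO, Max_KO and double_KO; points of a gene are set slightly apart. Ighd lies at 1.75 to 2.13, and Ighg2c and Igha in Max_KO lie lowest, at -4.03 and -3.59.

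Within the heavy chain, the share of each isotype does not depend on the scaling of the library. Ighm took 84.8 ± 0.169% of heavy chain constant reads in Myc_KO, 76.4 ± 1.22% in Max_KO, 79.9 ± 2.29% in double_KO and 75.7 ± 0.981% in the control (SD, n = 2). Ighd took 6.06 ± 0.658% in Myc_KO, 6.36 ± 0.188% in Max_KO, 4.95 ± 1.46% in double_KO and 1.21 ± 0.168% in the control. Ighg1 took 6.83 ± 0.317% in Myc_KO, 15.96 ± 0.977% in Max_KO, 13.0 ± 1.37% in double_KO and 18.2 ± 1.3% in the control.
The Ighg1 share was therefore lowest in Myc_KO, at 7.05 and 6.60% of the 2 libraries, while the nearest other library, double_KO replicate 2, stood at 12.0%. That order rests on a disputed library: with groups from the description the Ighg1 share was 10.5 ± 4.87% in Myc_KO and 9.31 ± 3.82% in double_KO (SD, n = 2), so double_KO was lowest and the 2 groups overlapped. Ighe took 1.07 ± 0.536% in Myc_KO, 0.776 ± 0.103% in Max_KO, 1.11 ± 0.327% in double_KO and 2.94 ± 0.407% in the control. The 6 genes downstream of Ighd together took 9.19 ± 0.827% in Myc_KO, 17.3 ± 1.03% in Max_KO, 15.2 ± 0.824% in double_KO and 23.1 ± 0.814% in the control (SD, n = 2).
The 6 knock-out libraries did not overlap the 2 controls in the shares of Ighd, Ighg1, Ighg2b, Ighg2c, Ighe, Igha and the downstream total, each with a two-sided exact permutation p of 0.07143, the smallest possible; adjusted values over the 9 shares cannot fall below it. For the Ighm share the exact permutation p was 0.143 and for Ighg3 it was 0.714. Between 2 groups of 2 libraries no exact p can go below 0.3333. Wilson 95% intervals of a share reached at most 0.206 percentage points to either side and cover counting error only.

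**Figure D3:**
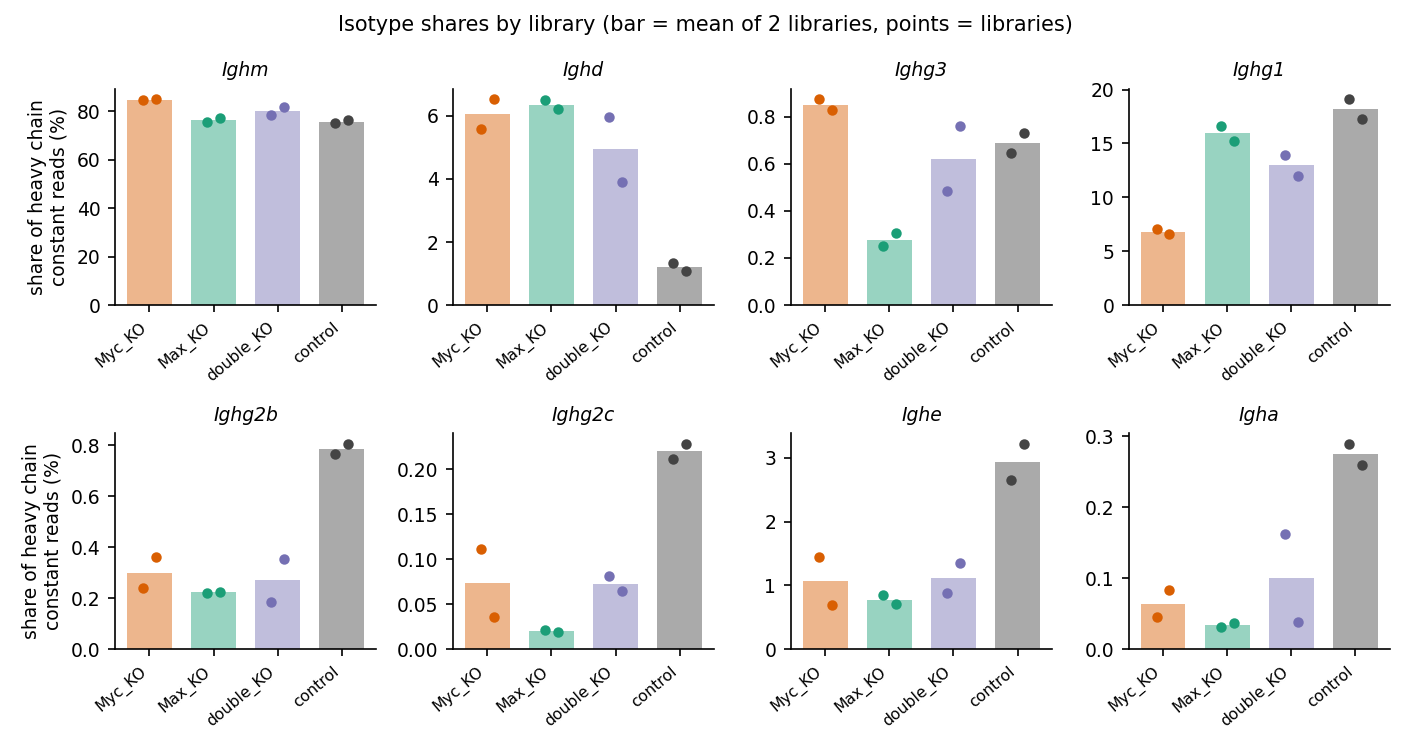
Share of each heavy chain constant gene in the summed heavy chain constant reads of a library, in percent (each panel has its own y axis from 0); bars are means of 2 libraries and points are libraries, for Myc_KO, Max_KO, double_KO and control. The Ighd share is 3.91 to 6.53% in the knock-outs and at most 1.33% in the controls, and by title the Ighg1 share is lowest in Myc_KO, an order that turns with groups from the description (10.5% in Myc_KO and 9.31% in double_KO).

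The ratios of Ighg1 and of Ighe to Ighm reads were lower in each knock-out, and in Max_KO by unlike amounts. Ighg1 to Ighm was 0.0833 and 0.0778 in Myc_KO, 0.221 and 0.198 in Max_KO, 0.178 and 0.147 in double_KO, and 0.255 and 0.226 in the control, that is 2.98-fold lower in Myc_KO, 1.15-fold in Max_KO and 1.48-fold in double_KO. With groups from the description the log2 difference of this ratio from the control was -0.977 in Myc_KO and -1.16 in double_KO, against -1.57 and -0.566 by title. Ighe to Ighm was 0.0171 and 0.00816 in Myc_KO, 0.0112 and 0.00911 in Max_KO, 0.0113 and 0.0165 in double_KO, and 0.0353 and 0.0422 in the control, that is 3.26-fold, 3.81-fold and 2.83-fold lower in Myc_KO, Max_KO and double_KO. In Max_KO the Ighe ratio was thus far lower than in the control while the Ighg1 ratio was close to it. The ratio of Ighg1 to Ighe was 4.86 and 9.53 in Myc_KO, 19.6 and 21.7 in Max_KO, 15.8 and 8.93 in double_KO, and 7.22 and 5.36 in the control. Both Max_KO libraries were above all others, and the Myc_KO libraries spanned the control range. The Ighg1 to Ighe ratio gave an exact permutation p of 0.214 over 6 against 2 libraries, and the other 4 ratios computed (Ighg1, Ighe and Ighd to Ighm, and summed heavy chain to Igkc) gave 0.07143.

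Between the knock-outs fewer members were called. Comparing Max_KO with Myc_KO, 1 of the 9 was higher (Ighg1) and 2 were lower (Ighg3 and Igkc), where 4.13% of all genes were called (2.44% higher and 1.69% lower) and 46.2% had libraries that did not overlap. Comparing double_KO with Myc_KO, Ighg1 was higher and the other 8 were not called, where 0.458% of all genes were called (0.418% higher and 0.0402% lower) and 41.4% did not overlap. Comparing double_KO with Max_KO, 0 of the 9 were called by limma, where 0.0402% of all genes were called (0.0322% higher and 0.00804% lower) and 31.5% did not overlap. Libraries overlapped for Ighe alone in Max_KO against Myc_KO, and for Ighd, Ighg1 and Ighg2b in double_KO against Max_KO. In double_KO against Myc_KO only Ighd, Ighg1 and Ighg3 did not overlap. At an unadjusted limma p under 0.05, 7 of the 9 passed for Max_KO against Myc_KO, where 19.4% of all genes did. For double_KO the counts were 2 of the 9 against Myc_KO (12.9% of all genes) and 5 against Max_KO (6.04%). In Max_KO against Myc_KO, Ighm and Ighg2c narrowly missed the threshold (limma adjusted p = 0.0558 and 0.0528). The fitted log2 differences of double_KO minus Max_KO were 2.18 for Ighg2c, with an interval of 1.10 to 3.25, 1.55 for Igha (0.35 to 2.74), 1.46 for Ighg3 (0.90 to 2.02) and between -0.06 and 0.83 for the other 6. In each knock-out replicate 1 has a title number in the 30s and replicate 2 in the 40s, and both controls are in the 30s. With that number series as a term, Ighg2c was also called lower in Max_KO than in Myc_KO (limma adjusted p = 0.0141) and Ighg3 higher in double_KO than in Max_KO (limma adjusted p = 0.0498). In the interaction, which sets the change on loss of Max in Myc-deficient cells against that in Myc-proficient cells, 8 of the 9 were called (7 positive, and Ighd negative), where 27.4% of all genes were called (12.4% positive and 15.0% negative).

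Immunoglobulin constant transcripts, the 3 lambda constant genes included, took 1.68 ± 0.0820% of all reads in Myc_KO, 1.204 ± 0.0403% in Max_KO, 1.56 ± 0.192% in double_KO and 1.91 ± 0.0248% in the control (SD, n = 2). Variable segments, which encode the antigen-binding part and which sterile downstream transcripts lack, moved differently. Reads in Ighv segments per heavy chain constant read were 0.132 and 0.133 in Myc_KO, 0.105 and 0.112 in Max_KO, 0.118 and 0.134 in double_KO, and 0.0722 and 0.0786 in the control. Reads in Igkv segments per Igkc read were 0.664 and 0.603 in Myc_KO, 0.568 and 0.582 in Max_KO, 0.588 and 0.603 in double_KO, and 0.410 and 0.424 in the control. In both loci all 6 knock-out libraries were above both controls (two-sided exact permutation p = 0.07143 each).
Of 101 Ighv segments listed, 89 were tested. In Myc_KO, 32 were higher and 0 lower, with a median log2 change of 0.64; in Max_KO, 4 were higher and 1 lower, with a median of 0.07; in double_KO, 19 were higher and 0 lower, with a median of 0.52. Of 98 Igkv segments listed, 88 were tested. In Myc_KO, 5 were higher and 12 lower, with a median of -0.27; in Max_KO, 0 were higher and 42 lower, with a median of -0.84; in double_KO, 0 were higher and 12 lower, with a median of -0.46. Over all genes tested, 24.0% were called higher and 21.4% lower in Myc_KO, 22.4% and 17.4% in Max_KO, and 21.9% and 16.8% in double_KO. The Igkv medians lay above the Igkc change in each knock-out, and the Ighv medians above the Ighm change. Reads of segments that resemble each other are divided by an estimate, and segments outside the annotation are not counted here.

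**Figure D4:**
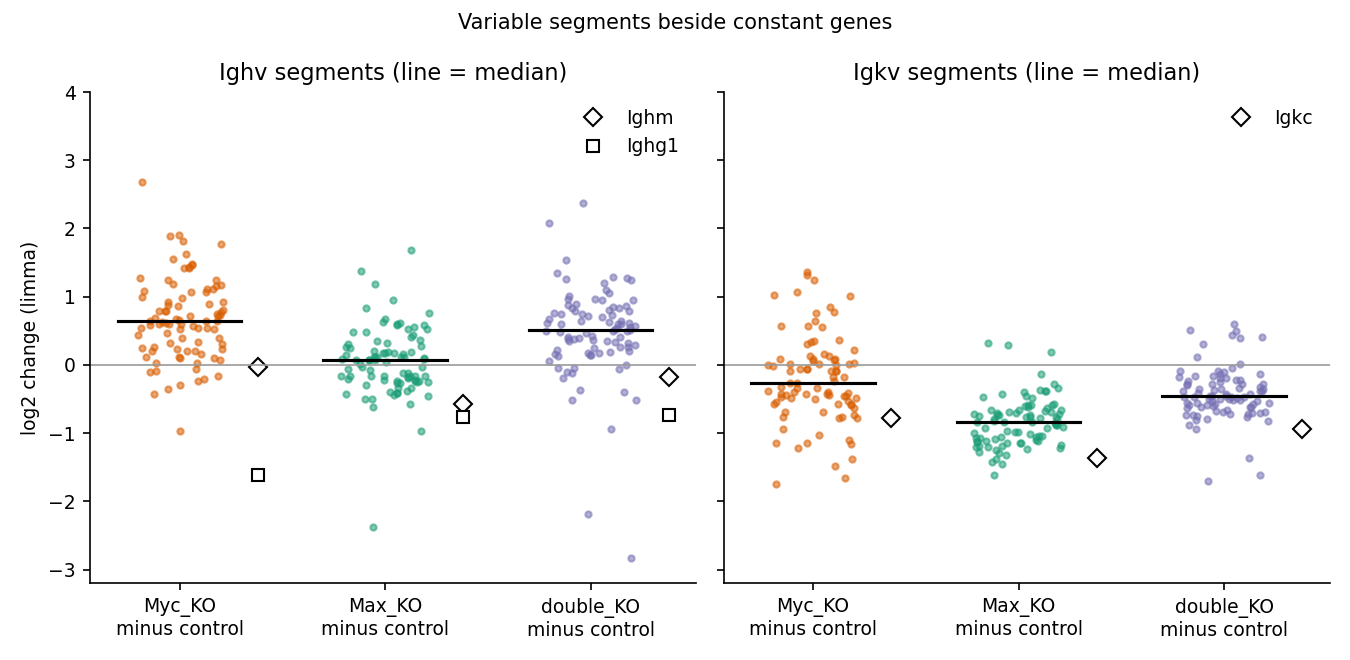
Log2 change against the control (y axis, limma) of 89 Ighv segments (left) and 88 Igkv segments (right) in Myc_KO, Max_KO and double_KO; points are segments, lines are medians and open symbols are the constant genes of the same locus. The Ighv medians of 0.64, 0.07 and 0.52 lie above Ighm and Ighg1, and the Igkv medians of -0.27, -0.84 and -0.46 lie above Igkc.

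Lambda light chain transcripts, which are a minor class in mice, followed Igkc only in part. Iglc1 measured 246 and 223 RPM in Myc_KO, 110 and 135 RPM in Max_KO, 162 and 253 RPM in double_KO, and 231 and 262 RPM in the control, and was called lower in Max_KO (log2 change -1.01 ± 0.20, limma adjusted p = 0.00475). Iglc2 rose in Myc_KO, by 0.79 ± 0.16 on the log2 scale (limma adjusted p = 0.00491), at 223 and 261 RPM in Myc_KO against 129 and 151 RPM in the control. Iglc3 rose in Myc_KO (0.36 ± 0.11) and fell in Max_KO (-0.39 ± 0.11, limma adjusted p = 0.0235 and 0.0192). All 3 tested Iglv segments fell in Max_KO, with a median log2 change of -1.54, where 17.4% of all genes were called lower. None of these segments was called in Myc_KO or double_KO. The lambda genes are close copies of one another, so their division is uncertain. Vpreb3, the fourth tested gene of the list of light and surrogate light chains, was lower in all 3 knock-outs.

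Genes that act on or with these transcripts were taken from lists. Of 38 genes of germline transcription and class switching, 10 were higher and 9 lower in Myc_KO (median -0.11), 11 and 7 in Max_KO (0.07), and 10 and 6 in double_KO (0.03). Of all genes tested, 24.0% were higher and 21.4% lower in Myc_KO, 22.4% and 17.4% in Max_KO, and 21.9% and 16.8% in double_KO. Atm, the kinase that senses DNA breaks, measured 404 and 372 RPM in Myc_KO, 254 and 390 RPM in Max_KO, 371 and 358 RPM in double_KO, and 58.3 and 61.0 RPM in the control. Every knock-out library was above both controls.
Atm rose by 2.70 ± 0.17, 2.40 ± 0.17 and 2.61 ± 0.17 in Myc_KO, Max_KO and double_KO, and Trp53bp1, which protects the broken ends during switching, by 0.58 ± 0.08, 0.74 ± 0.08 and 0.73 ± 0.08 (log2, SE). Bach2, a repressor that favours switching over plasma cell fate, rose by 1.65 ± 0.22, 1.64 ± 0.22 and 1.65 ± 0.22. Il4ra, the IL-4 receptor, and Batf, a factor needed for switching, were looked at after their values were seen; Il4ra fell by 0.999 ± 0.15, 0.58 ± 0.15 and 0.80 ± 0.15 and Batf by 1.32 ± 0.25, 1.05 ± 0.25 and 1.23 ± 0.25 in Myc_KO, Max_KO and double_KO (log2, SE).

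Of 12 genes of mu and delta transcript processing, 4 were higher and 1 lower in Myc_KO (median 0.17), 5 and 0 in Max_KO (0.18), and 7 and 1 in double_KO (0.28). The shares of all genes called higher and lower were 24.0% and 21.4% in Myc_KO, 22.4% and 17.4% in Max_KO, and 21.9% and 16.8% in double_KO. Zfp318, which in mouse B cells is needed for reading through to Ighd, measured 136 and 152 RPM in Myc_KO, 142 and 114 RPM in Max_KO, 142 and 113 RPM in double_KO, and 73.1 and 66.6 RPM in the control. Zfp318 rose by 1.04 ± 0.14 in Myc_KO, 0.86 ± 0.14 in Max_KO and 0.86 ± 0.14 in double_KO (log2, SE, limma adjusted p = 0.000771, 0.00245 and 0.00255). Being called higher in each of the 3 knock-outs was shared by 17.3% of all genes tested. A link between Zfp318 and the rise of Ighd was not tested. Ctcf, a factor that organises the locus, rose by 0.76 ± 0.07, 0.58 ± 0.07 and 0.58 ± 0.07, and Hnrnpll, a splicing regulator of plasma cells, by 1.24 ± 0.23 in Myc_KO and 0.89 ± 0.23 in double_KO, with 0.28 ± 0.23 in Max_KO (not called). Ptbp1, another splicing regulator, rose by 0.35 ± 0.08 in Max_KO and double_KO.

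Of 18 tested plasma cell and secretion genes, 2 were higher and 6 lower in Myc_KO (median -0.02), 2 and 8 in Max_KO (-0.60), and 1 and 4 in double_KO (0.15). Among all genes, 24.0% were higher and 21.4% lower in Myc_KO, 22.4% and 17.4% in Max_KO, and 21.9% and 16.8% in double_KO. Jchain, which joins IgM pentamers, was lowest in Max_KO, with 281 and 260 RPM in Myc_KO, 37.3 and 35.4 RPM in Max_KO, 137 and 261 RPM in double_KO, and 210 and 255 RPM in the control. Jchain fell in Max_KO by 2.67 ± 0.25 on the log2 scale (SE, limma adjusted p = 0.000254), and was higher in double_KO than in Max_KO by 2.38 ± 0.25 (limma adjusted p = 0.0294). Mzb1, a chaperone of IgM assembly, fell by 0.63 ± 0.12, 1.10 ± 0.12 and 0.72 ± 0.12, and Xbp1, a regulator of the secretory apparatus, by 0.89 ± 0.16, 1.48 ± 0.16 and 0.89 ± 0.16 in Myc_KO, Max_KO and double_KO. Ssr4, of the translocon, fell by 0.78 ± 0.09, 0.98 ± 0.09 and 0.79 ± 0.09. Derl3, of protein quality control in the endoplasmic reticulum, fell by 1.39 ± 0.16 in Myc_KO and rose by 0.997 ± 0.16 in Max_KO, with 0.39 ± 0.16 in double_KO (not called). Derl3 measured 14.4 and 18.0 RPM in Myc_KO, 56.7 and 54.1 RPM in double_KO, and 42.95 and 41.7 RPM in the control. By description the Myc_KO group would join Derl3 levels of 14.4 and 56.7 RPM, and the double_KO group 18.0 and 54.1 RPM.

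**Figure D5:**
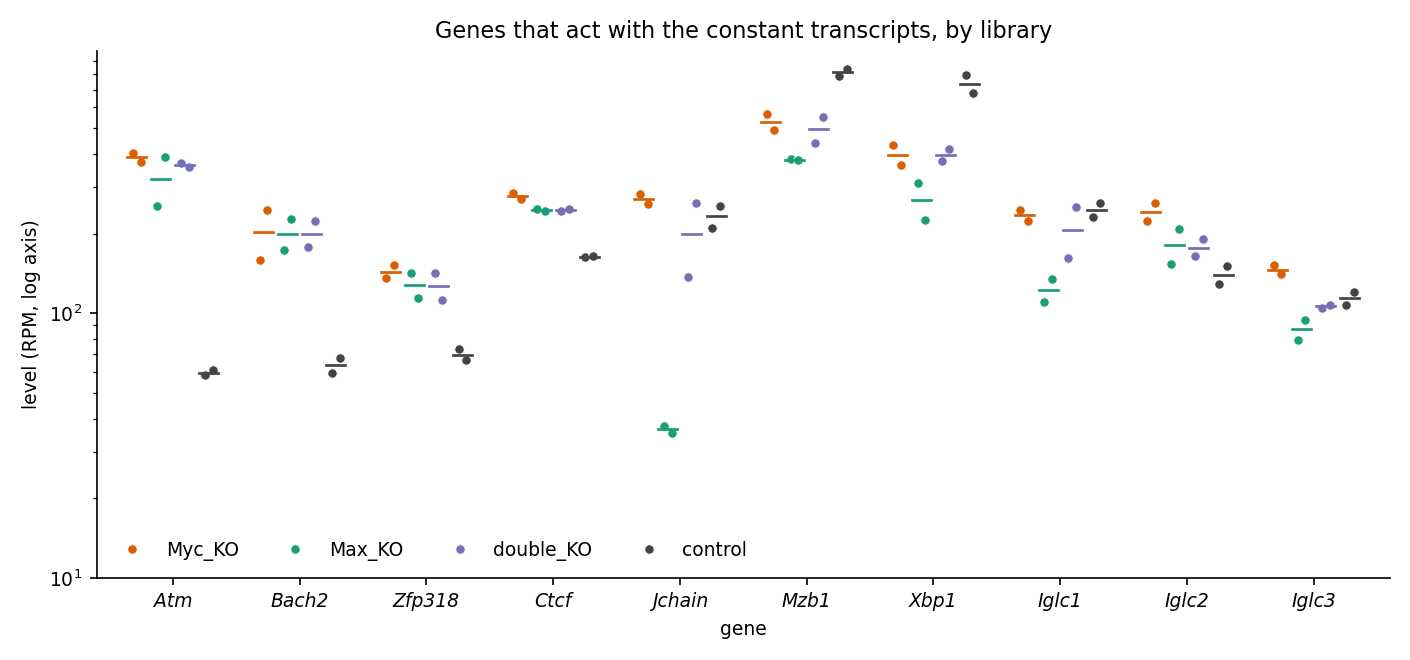
Level of 10 partner genes in each library, in RPM on a log axis; points are libraries, lines are means of 2, and groups stand in the order Myc_KO, Max_KO, double_KO and control. Atm stands at 254 to 404 RPM in the knock-outs against 58.3 and 61.0 RPM in the control, Bach2, Zfp318 and Ctcf stand above the control as well, and Jchain is lowest in Max_KO.

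Of 10 receptor partners of membrane immunoglobulin, 4 were higher and 1 lower in each knock-out (medians 0.15, 0.12 and -0.04 in Myc_KO, Max_KO and double_KO). For this list and those that follow, the shares of all genes are the background. These were 24.0% higher and 21.4% lower in Myc_KO, 22.4% and 17.4% in Max_KO, and 21.9% and 16.8% in double_KO. The signalling chain Cd79a was not called in any, with log2 differences of 0.13, 0.02 and -0.13. Cr2, the complement receptor of mature B cells, rose by 2.32 ± 0.22, 1.196 ± 0.22 and 1.33 ± 0.22, and the kinases Syk (1.05, 1.09 and 0.78) and Lyn (1.06, 0.87 and 0.78) rose in all 3. Cd81 fell by 0.64 ± 0.09, 0.72 ± 0.09 and 0.62 ± 0.09. Of 18 transcription and architectural factors of the locus, 11 were higher and 2 lower in Myc_KO, and 12 and 1 in each of Max_KO and double_KO (medians 0.45, 0.45 and 0.46). Pax5, which holds B cell identity, rose by 1.68 ± 0.18, 1.63 ± 0.18 and 1.61 ± 0.18, Ebf1 by 1.55 ± 0.14, 1.299 ± 0.14 and 1.305 ± 0.14, Pou2f2 by 1.28 ± 0.09, 1.03 ± 0.09 and 0.97 ± 0.09, and the cohesin loader Nipbl by 1.26 ± 0.11, 0.87 ± 0.11 and 0.97 ± 0.11. Of 8 tested immunoglobulin receptors, 3 were higher and 1 lower in Myc_KO, 2 and 1 in Max_KO, and 3 and 1 in double_KO. Fcmr, the receptor for IgM, measured 192 and 170 RPM in Myc_KO, 47.8 and 51.7 RPM in Max_KO, 124 and 62.1 RPM in double_KO, and 11.3 and 10.9 RPM in the control, with log2 changes of 4.02 ± 0.26, 2.16 ± 0.26 and 2.98 ± 0.26 (SE, limma adjusted p = 5.34e-05, 0.000659 and 0.000218).

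Markers of cell types moved with these results. The 6 B cell markers summed to 5999 to 7289 RPM in the knock-outs and 4852 and 4924 RPM in the control. The 6 plasma cell markers, Jchain and Xbp1 among them, summed to 953 and 960 RPM in Myc_KO, 574 and 658 RPM in Max_KO, 799 and 1101 RPM in double_KO, and 1206 and 1259 RPM in the control. Of plasma cell markers, Sdc1 differed from the control by 0.89, -0.99 and 1.01 on the log2 scale in Myc_KO, Max_KO and double_KO, and Irf4 by 0.00, 0.37 and 0.39, none called. The 7 T cell markers, all in the table, summed to 16.5 to 48.9 RPM in the knock-outs and 6.01 and 6.42 RPM in the control, and 3 of 4 NK cell markers to 1.67 to 10.8 RPM in the knock-outs and 0.560 and 0.788 RPM in the control. Of 7 myeloid markers 4 were found, with sums of 8.79 to 29.9 RPM in the knock-outs and 2.44 and 3.39 RPM in the control. Adgre1 made up most of this in the knock-outs, and Lyz2 was under 0.4 RPM in every library. Cd3e was at 0 RPM in control replicate 1. The 4 red cell markers were not found by name among the 15681 genes, and of 6 pre-B cell markers only 1 was found, at 0.0535 to 0.392 RPM. The part of cell composition, and of the mitochondrial share given above, in the constant gene results was not tested.

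For the 8 members whose levels spanned at least a 2-fold range, the genes of the most similar pattern were sought by Pearson correlation over the 8 libraries, as a description, since the 4 groups shape every such value. Ighd was closest to Synrg (r = 0.998), Dido1 and Usp12 (0.995 each). Ighg1 was closest to Ttc21a (0.992), Impdh1 (0.986) and the cell division genes Cep55 (0.985) and Aurkb (0.981). Ighg2b was closest to Pik3r6 (0.993), Ighg2c to Leprotl1 (0.981), Ighe to Lmo7 (0.986) and Igha to Gcdh (0.968). Ighg3 was closest to Epha8 (0.991), Jchain (0.988) and Iglc1 (0.981), and Igkc to Mzb1 (0.993).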

How the data were processed

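Gene expression was measured by RNA-seq in 8 libraries. The authors deposited log2 values for 15681 genes, from -5.23 to 14.5. CASAVA 1.8, cutadapt, RSEM 1.2.3 and GRCm38 are named per the submitters' processing notes; for parameters, annotation and strand the sources used here give nothing. The values fit log2 of estimated reads plus 0.5, divided by an effective library size in M. Reads were recovered in steps of 0.01 read (tolerance 0.0002) and gave RPM and shares. This scaling reports changes against the bulk of genes, and reads shared by paralogs were split by estimate.

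The filter was 1 RPM in 2 or more libraries (12441 genes). The log2 values of all 8 libraries entered 1 model of 4 groups in limma 3.58.1 with R 4.3.3 (trended eBayes, 4 residual and 4.2 prior degrees of freedom), two-sided, Benjamini-Hochberg over all genes tested, threshold 0.05, tested on simulated data. The design allowed for linear values or counts; since the values were already log2 and the recovered reads not all whole, they were used unchanged and no count test was run. Shares and ratios were compared by exact permutation tests over libraries. Symbols (15622 genes) and exon lengths came from GENCODE vM21. Tables and plots used Python 3.11.15 with numpy 2.4.6, matplotlib 3.10.9, pandas 2.3.3 and scipy 1.17.1. Alternatives changed groups, scaling, pseudocount, filter, block, number series, samples in the fit, spread and single libraries. Members and lists were chosen with earlier results of these data known. Named genes were the 9 members, Myc, Max, Zfp318, Jchain and the Iglc genes, up to 4 per list with the lowest adjusted p, and the 5 genes most correlated with each member that spanned 2-fold; exceptions are marked. A further gene that the rule names is not reported here.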

Additional observations from a re-analysis of the deposited data

Results flagged for a closer look

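For 8 of the 9 genes, the change on loss of Max in Myc-deficient cells (double_KO minus Myc_KO) differed from the change on loss of Max in Myc-proficient cells (Max_KO minus control) in a test of the difference itself (the interaction in limma, adjusted over all genes), where 27.4% of all genes tested were called. For Ighd the first change was -0.38 and the second 1.82, a difference of -2.19 (limma adjusted p = 0.000913). The 6 downstream genes and Igkc gave positive differences. The difference was 2.14 for Ighg2b (limma adjusted p = 0.0114), 4.17 for Ighg2c (0.00362), 1.35 for Ighg3 (0.0233), 2.57 for Ighe (0.0105), 3.90 for Igha (0.00703) and 1.22 for Igkc (0.00261), all limma adjusted p. Under 23 alternatives Ighd, Ighg2c and Igha were called in 23, Ighe and Igkc in 22, Ighg2b in 21 and Ighg3 in 18. The replicate block in the title groups ended the calls of Ighg2b, Ighg3 and Ighe (limma adjusted p = 0.0656, 0.0709 and 0.0645). The call of Ighg3 was also lost when Myc_KO replicate 2 or either control was left out, and without a trend (limma adjusted p = 0.0650). That of Ighg2b was also lost without control replicate 1, and that of Igkc with only the libraries numbered in the 30s.

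Ighg1 gave a difference of 1.64 (limma adjusted p = 0.000926), with changes of opposite sign: 0.87 in Myc-deficient cells and -0.77 in Myc-proficient cells. It was called in 21 of 23 alternatives, and with groups from the description it was 0.68 (limma adjusted p = 0.321). Ighm was not called (0.43, limma adjusted p = 0.107).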

How the results depend on the processing

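Of the 23 calls of members against the control, 534 of 552 values under 24 alternatives kept direction and call, 18 lost the call and 0 changed sign; the losses came with quantile normalization, the description groups, the libraries numbered in the 30s (an alternative chosen after seeing the data) and single libraries left out. Leaving out 1 library gave 3390 to 5599 genes called in Myc_KO against the control (5659 with all). The same gave 2682 to 5021 genes for Max_KO (4949), and for double_KO 2645 to 4925 genes (4817) and 4 to 7 members (7). The cause of each shift below was not tested.

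Comparisons between knock-outs depended on the grouping and on the spread. For Max_KO against Myc_KO (514 genes, 3 members), 13 genes and 0 members were called with the description groups, 1303 genes after a term for the number series, 1650 genes and 6 members with libraries numbered in the 30s, 63 genes and 1 member with only the groups compared, 135 genes and 1 member without a trend, and 97 to 530 genes and 1 to 4 members with 1 library left out. For double_KO against Myc_KO (57 genes, 1 member), the counts were 0 genes and 0 members with the description groups, 26 and 0 with the 6 undisputed libraries, 291 genes with the series term, 544 and 5 with the 30s, 33 genes with only the groups compared, 9 and 0 without a trend, and 9 to 114 and 0 to 1 with 1 library left out. For double_KO against Max_KO (5 genes, 0 members), they were 26 genes with the description groups, 24 and 3 with the undisputed libraries, 31 and 1 with the series term, 305 and 3 with the 30s, 0 genes with only the groups compared, 0 without a trend, 3 with robust eBayes, and 3 to 24 and 0 to 1 with 1 library left out. The interaction (3413 genes) ranged over 1698 to 3323 with 1 library left out.

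Whether the replicate numbers of the description pair the libraries cannot be decided here. In the description groups, same-numbered libraries deviated with correlations of -0.108 to 0.263. By title, both libraries of Myc_KO carry the same number, as do both of double_KO. Only control and Max_KO could therefore be compared by title, with a correlation of -0.108. Libraries of the same number series (titles in the 30s or the 40s) deviated together in the 3 pairs of knock-outs, with correlations of 0.363, 0.315 and 0.371. The labels do not say what the number marks, and both controls are in the 30s. With the replicate block in the title groups, 123 genes were called for Max_KO against Myc_KO, 1 gene and 0 members for double_KO against Myc_KO, 3 genes for double_KO against Max_KO, and 1293 genes and 5 members in the interaction (8 members without it). With the block in the description groups, the counts were 44 genes and 1 member, 0 and 0, and 87 and 2 for the same 3 pairs.

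Single values changed sign as follows. Ighm in Myc_KO (-0.034) was 0.0212 with the undisputed libraries and with the 30s, 0.11 under the same total with or without immunoglobulin reads, 0.42 under quantile normalization, and -0.0895 to 0.0212 with 1 library left out; in double_KO (-0.18) it was 0.21 under quantile normalization. Ighg3 in Myc_KO (0.11) was -0.33 in the description groups, with or without the block, and -0.0374 with the series term; in double_KO (-0.43) it was 0.0127 in the description groups, with or without the block, 0.00957 with the undisputed libraries, and -0.87 to 0.00957 with 1 library left out. Ighg1 in double_KO against Myc_KO (0.87) was -0.0953 in the description groups, with or without the block. Ighd in double_KO against Max_KO (-0.063) was 0.0578 in the description groups, with or without the block, 0.0558 with the 30s, and -0.25 to 0.13 with 1 library left out.

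Shares moved by more than 1 SD as follows, in percentage points against the control. With the description groups Ighm was 5.75 in Myc_KO (9.04) and 7.49 in double_KO (4.19), Ighg1 was -7.68 in Myc_KO (-11.4) and -8.87 in double_KO (-5.21), and the immunoglobulin share of the library was -0.329 in Myc_KO (-0.23). Per kilobase, Ighm in Myc_KO was 6.95, Ighg1 in Myc_KO -8.83 and Ighd in Max_KO 5.34 (5.15). Without Ighd in the sum, Ighm was 13.6 in Myc_KO, 4.89 in Max_KO (0.639) and 7.42 in double_KO. Leaving out 1 library gave -0.226 to 1.5 for Ighm in Max_KO. Of the log2 ratios, Ighg1 to Ighm with the description groups was -0.977 in Myc_KO (-1.57) and -1.16 in double_KO (-0.566), and heavy chain to Igkc was 0.637 in Myc_KO (0.586, and 0.628 per kilobase) and 0.63 in double_KO (0.681). Ighg1 to Ighe in Myc_KO (0.131) was -0.355 with the undisputed libraries and -0.355 to 0.616 with 1 library left out. Depth limits Ighg2c and Igha most, at 30 to 59 estimated reads in Max_KO libraries.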
